A study of Mus musculus with 4 samples.

Results

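Subcluster 3 was one of 10 subclusters, numbered from 0, of the cells identified as group 2 innate lymphoid cells (ILC2s). It was described here through its marker genes, taken as every gene that the deposited ILC2 subcluster table lists for it. A gene is listed for a subcluster when the authors called it higher there than in all other ILC2s. Of the 2629 genes in the table, 237 (9.01%) were listed for subcluster 3. The label given to these cells names the AP-1 transcription factors and *Calca*, and the genes beyond the AP-1 family are described here.

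The cells came from livers and lungs of wild-type male BALB/c mice, 8 weeks old, that were injected intraperitoneally on each of 5 days. The 4 libraries formed 4 groups of 1 library each, which were liver and lung after PBS, the vehicle, and liver and lung after a daily dose of 0.5 µg of IL-33 made as a recombinant protein (rIL-33), the alarmin that ILC2s sense through ST2. Each group pooled tissue of 2 to 6 mice, and cells were sorted as lineage-negative cells carrying CD127, Thy1 and ST2 before droplet-based single-cell RNA sequencing (scRNA-seq) of transcript 3′ ends. The table pools all 4 libraries and gives, for each listed gene, the shares of the subcluster and of all other ILC2s in which it was detected, that is, had a value above 0, so liver was not compared with lung, nor rIL-33 with PBS. The table gives neither the number of cells nor their depth, no counting interval was computed for a share, and a low share could mean fewer expressing cells or less RNA per cell, which cannot be told apart. A subcluster is defined by the genes of the same cells that were clustered, so every value below is a description with no test.

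ILC2s are tissue-resident lymphocytes without antigen receptors. They depend on the transcription factor GATA3, receive signals from epithelial alarmins such as IL-33, from neuropeptides and from lipid mediators, and release IL-5, IL-13 and other factors. *Calca* encodes calcitonin and, through alternative splicing, calcitonin gene-related peptide (CGRP), a neuropeptide that acts through the receptor chains CALCRL and RAMP1 and raises cyclic AMP (cAMP) in the receiving cell. Stimulated lymphocytes switch on immediate early genes, which include AP-1 subunits and the NR4A and EGR factors, together with inhibitors that later shut the same pathways down, such as A20 for NF-κB, Sprouty proteins for MAP kinases and the ZFP36 proteins that mark cytokine transcripts for decay. The table gives 1 value per gene, so calcitonin and CGRP transcripts were not separated.

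Subcluster 3 held 14.9% of the ILC2s, a size solved from the shares of cells, and was the fourth largest after subclusters 0 (27.3%), 1 (20.1%) and 2 (18.3%). Its genes were mostly widespread ones that were detected in somewhat more of its cells. The median share was 57.8% of cells inside against 50.6% outside, and the median difference between both shares was 6.4 percentage points. Of the 237 genes, 67 differed by at least 10 points and 11 by at least 20 points, while 95 differed by less than 5 points. The share was at least 1.5 times as high inside as outside for 33 genes and at least 2 times for 10. No gene was confined to the cells of subcluster 3: of all ILC2s with a given gene, subcluster 3 held between 13.8% and 34.0%, and at least 25% for 12 genes. For comparison, the median difference was 1.35 points in subcluster 0, 15.8 points in subcluster 1, 16.1 points in subcluster 2 and 34.1 points in subcluster 4.

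**Figure D1:**
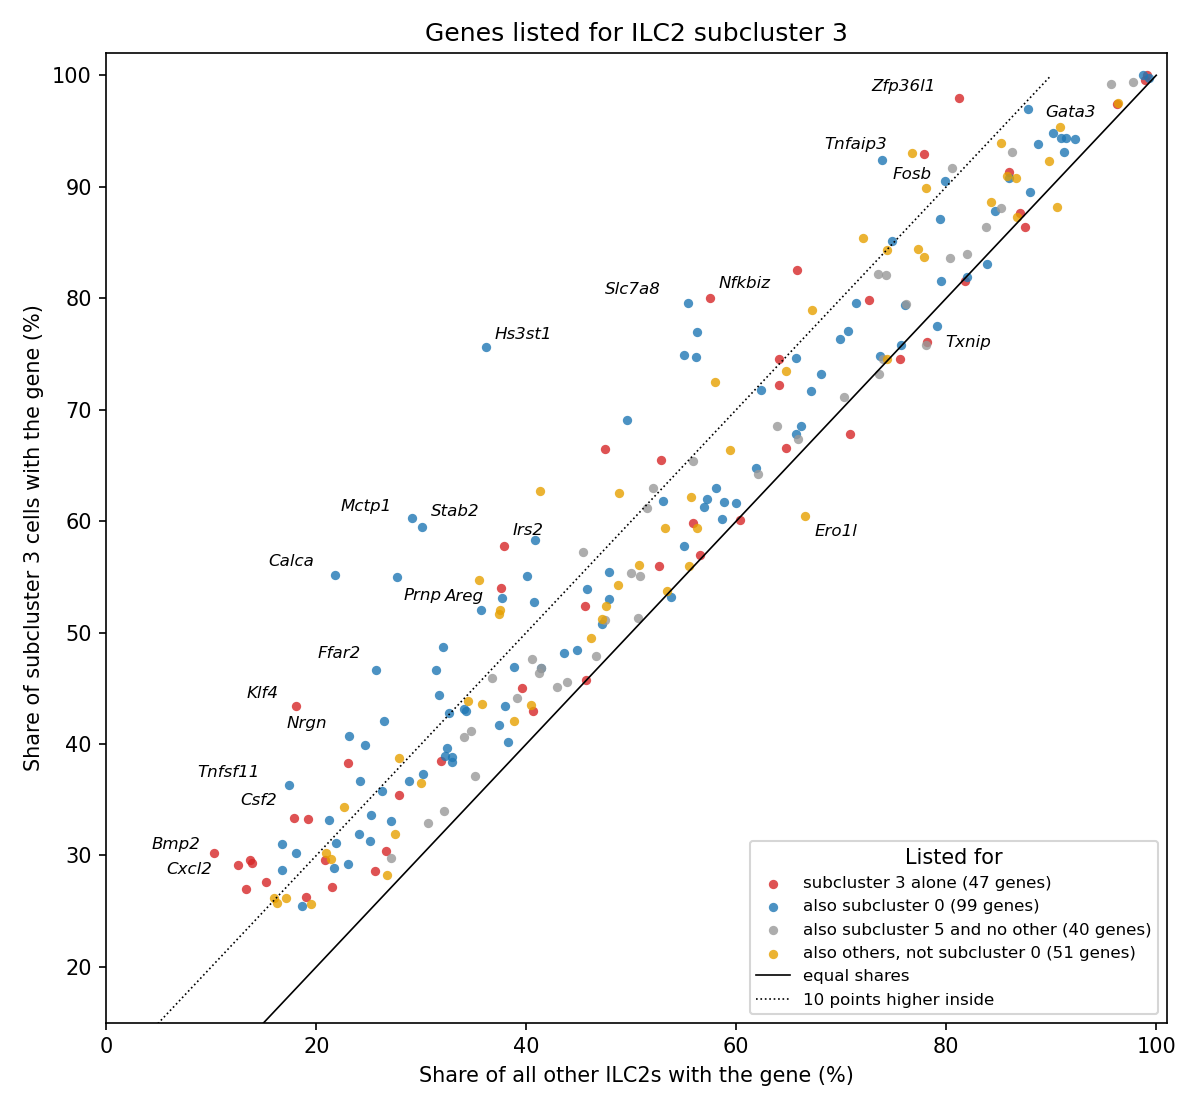
Share of cells with a value above 0 in subcluster 3 (vertical axis, %) against the share in all other ILC2s (horizontal axis, %). Each point is 1 of the 237 listed genes, coloured by the other subclusters that list it; the solid line marks equal shares and the dotted line a share 10 points higher inside. *Hs3st1*, at 75.6% against 36.2%, and *Calca*, at 55.2% against 21.8%, lie farthest above the line, most genes lie close to it, and *Ero1l* lies farthest below, at 60.5% against 66.5%.

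The 5 genes given as markers of these cells differed in how far they set them apart. *Calca* (chr7:114631478-114636357, minus strand) was detected in 55.2% of subcluster 3 cells and 21.8% of other ILC2s. *Hs3st1* (chr5:39613935-39755475, minus strand), an enzyme that adds the 3-O-sulfate group to heparan sulfate, was detected in 75.6% and 36.2%. The chemokine gene *Cxcl2* (chr5:90903871-90905938, plus strand) was detected in 29.1% and 12.5%. By ratio of both shares these genes led the 5 markers, at 2.53, 2.09 and 2.33 in that order. The AP-1 subunit *Fosb* (chr7:19302696-19310051, minus strand) was in 92.4% of cells inside and already in 73.9% outside, and *Areg* (chr5:91139599-91148432, plus strand), the epidermal growth factor receptor ligand amphiregulin, was in 51.7% and 37.4%. By difference, *Fosb* at 18.5 points lay above *Cxcl2* at 16.6 points, and *Areg* followed at 14.3 points. *Areg* was detected in larger shares of subcluster 7 (62.0%) and subcluster 8 (57.3%) than of subcluster 3, so its share was not highest in subcluster 3. In the ILC2s outside every subcluster that lists *Areg*, its share was 36.8%, solved from the deposited shares. All positions are those of mouse build GRCm38, and all 237 genes are annotated as protein coding.

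The cells carried genes that define ILC2s, and the few markers of other lineages that could be checked were not listed. Of 20 ILC2 identity genes, 16 were in the table and 9 of these were listed for subcluster 3, at a median difference of 9.2 points. That was 56.25% of the 16, against 9.01% of all genes in the table. *Gata3* was detected in 94.8% of cells inside against 90.2% outside, *Il1rl1*, which encodes ST2, in 97.0% against 87.8%, and *Rora*, a nuclear receptor needed for ILC2 development, in 92.3% against 89.8%. *Il2ra* (85.1% against 74.8%), *Icos* (74.5% against 64.1%), *Cd81* (71.8% against 62.4%), *Ptpn13* (63.0% against 58.1%), *Il17rb* (52.4% against 47.6%) and *Kit* (36.7% against 24.2%) completed the group. Larger shares elsewhere were found for *Rora* in subcluster 7 (96.0%), for *Il17rb* in subclusters 2 (66.7%), 6 (72.7%) and 9 (65.4%), and, in subclusters 0 and 9, for *Kit* (41.5% and 59.3%) and *Cd81* (75.5% and 82.7%). The other 7 identity genes in the table, *Il7r*, *Il2rg*, *Id2*, *Klrg1*, *Il18r1*, *Il9r* and *Tcf7*, were listed for other subclusters. None of the T cell (6 in the table), B cell (1), NK cell, ILC1 and ILC3 (1), or hepatocyte, lung epithelium and endothelium (1) markers was listed for subcluster 3, and none of the 11 myeloid and basophil markers was in the table at all. Only 9 such markers were thus checked. Cells were sorted for ST2 and against lineage markers. Before subclustering, the authors also left out cells that expressed non-ILC2 markers such as *Cd3* and *Cd11b*. The absence of lineage markers and the high share of *Il1rl1* were thus largely set in advance.

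Among secreted products, *Calca* stood out by difference and *Bmp2* by ratio. *Calca* was listed for one other subcluster, subcluster 0, where 33.3% of cells had it. The share in ILC2s outside both subclusters, solved from the deposited shares, was 16.3% with a rounding limit of 0.09 points. The order was therefore subcluster 3, then subcluster 0, then the remaining ILC2s, and subcluster 3 held 30.8% of all *Calca*-positive ILC2s. *Bmp2*, a bone morphogenetic protein, was detected in 30.2% of cells inside against 10.3% outside, a ratio of 2.93 that was the highest of the 237, and 34.0% of the ILC2s with it lay in subcluster 3. *Cxcl2*, which attracts neutrophils, had a ratio of 2.33, with 29.0% of its positive cells in subcluster 3. *Csf2*, the cytokine GM-CSF, was in 33.4% of cells inside against 17.9% outside. *Bmp2*, *Cxcl2* and *Csf2* were listed for no other subcluster. *Tnfsf11*, which encodes RANKL, was in 36.3% of subcluster 3 and 37.0% of subcluster 0 but only 8.1% of the remaining ILC2s.

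The type 2 cytokines were not among the listed genes. Of 27 cytokines, chemokines and growth factors, 8 were in the table. Of these 8, 4 (50%, against 9.01% of all table genes) were listed for subcluster 3. They were *Areg*, *Csf2*, *Cxcl2* and *Tnfsf11*, at a median difference of 16.1 points. *Il13* was listed for subclusters 1 (52.8% of cells), 2 (56.5%), 4 (62.1%), 7 (60.5%) and 8 (69.7%). In the ILC2s outside those 5 subclusters its share was 17.8%, and subcluster 3 made up 29.7% of these cells. *Il5* was listed for subclusters 7 (46.5%) and 9 (42.0%), *Il4* for subcluster 7 and *Ccl5* for subclusters 1, 4 and 8. The share of *Il13*-positive cells in subcluster 3 itself could not be solved, because a missing listing gives no value for that subcluster.

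*Hs3st1* showed the largest difference of all, 39.4 points. It was also listed for subclusters 0 (56.8%) and 7 (57.0%), and the remaining ILC2s had it in 25.7% (rounding limit 0.10 points). The only other gene of the heparan sulfate list in the table was *Sdc4*, a syndecan core protein that carries heparan sulfate chains. It was detected in 39.9% of subcluster 3 cells and 24.6% of other ILC2s, but in larger shares of subclusters 0 (52.6%) and 9 (63.0%), and in 10.8% of ILC2s outside its listing subclusters. The other 12 genes of that list, among them the polymerases and other sulfotransferases, were not in the table.

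**Figure D2:**
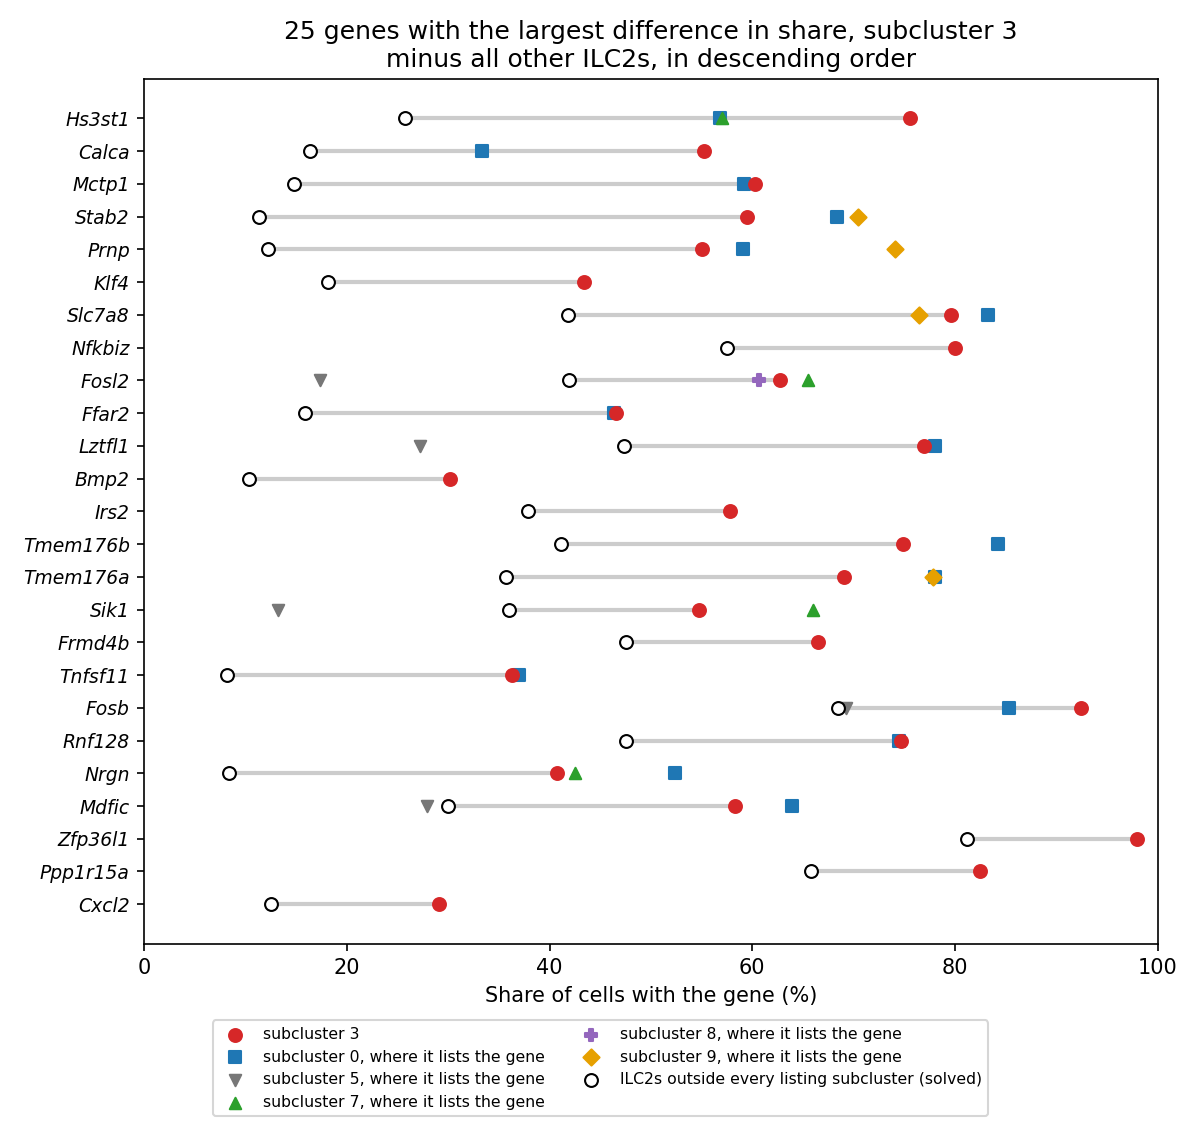
Share of cells with the gene (%) for the 25 genes with the largest difference between subcluster 3 and all other ILC2s, in descending order. Red circles are subcluster 3, other filled symbols are subclusters that also list the gene, and open circles are the ILC2s outside every listing subcluster, solved from the deposited shares. *Hs3st1* and *Calca* are highest in subcluster 3, *Stab2*, *Prnp*, *Tmem176b* and *Nrgn* are higher in subcluster 0, and *Klf4*, *Nfkbiz*, *Bmp2*, *Irs2*, *Frmd4b*, *Zfp36l1*, *Ppp1r15a* and *Cxcl2* were listed for subcluster 3 alone.

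Receptors and genes of the neuropeptide and cAMP pathway were the next group. Of 26 such genes 9 were in the table, and 6 were listed for subcluster 3, at a median difference of 11.1 points. That was 66.7% of the 9, against 9.01% of all table genes. Besides *Calca* the listed genes were *Sik1*, a salt-inducible kinase whose transcript is raised by cAMP (54.7% against 35.5%), and the regulators of G-protein signalling *Rgs2* (85.4% against 72.1%) and *Rgs1* (87.3% against 86.7%). The proton-sensing receptor *Gpr65* (74.6% against 65.7%) and *Vipr2*, a receptor for vasoactive intestinal peptide (33.6% against 25.2%), were listed too. *Sik1* and *Rgs2* were detected in still larger shares of subcluster 7, at 66.0% and 91.5%, and *Rgs1* in subclusters 2, 8 and 9, at 95.6%, 98.9% and 95.1%. *Vipr2* was at 55.6% in subcluster 9 and nearly level in subcluster 0, at 33.8%. The CGRP receptor chains themselves were not listed for subcluster 3. *Calcrl* was listed for subclusters 0 (32.4%) and 9 (38.3%) as well as 5, and *Ramp1*, present in 92.0% of all ILC2s, for subclusters 0 (96.7%), 6 (98.4%) and 9 (100%).

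Other receptors on the list respond to chemokines and metabolites. *Ffar2*, the receptor for short-chain fatty acids, was detected in 46.6% of subcluster 3 and 46.4% of subcluster 0 against 15.9% of the remaining ILC2s. *Ccr8* was in 46.6% of subcluster 3, 35.4% of subcluster 0 and 30.7% of the ILC2s outside its listing subclusters. *Il10ra*, the ligand-binding chain of the IL-10 receptor, was in 38.3% inside against 23.0% outside and was listed for subcluster 3 alone. Of the 12 tissue retention and exit genes in the table, 4 (33.3%, against 9.01% of all table genes) were listed for subcluster 3. They were *Ccr8*, *Cxcr4* (57.2% against 45.4%), the oxysterol receptor gene *Gpr183* (45.9% against 36.7%) and *Cd69*, which retains lymphocytes in tissue by opposing S1PR1 (83.7% against 77.9%, and 92.6% in subcluster 9). *S1pr1*, the receptor that guides lymphocytes out of tissue, was listed for subcluster 1 only, with 50.5% of its cells against 9.9% of all other ILC2s, and *S1pr4*, *Ccr2*, *Ccr4*, *Cxcr6*, *Itgae*, *Itga4* and *Itgb7* were also not listed for subcluster 3. The leukotriene receptor *Cysltr1* (73.2% against 68.1%) and *Alox5*, the enzyme that starts leukotriene synthesis (29.7% against 21.4%, and 43.5% in subcluster 7), were listed as well.

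Transcription factors other than AP-1 were led by *Klf4*. This Krüppel-like factor was detected in 43.4% of subcluster 3 against 18.1% of other ILC2s, a ratio of 2.40, and was listed for no other subcluster. Of the 13 immediate early factors outside AP-1 that were in the table, 9 (69.2%, against 9.01% of all table genes) were listed, at a median difference of 9.3 points. The orphan nuclear receptor *Nr4a1* was in 72.5% against 58.0%, *Nr4a2* in 27.0% against 13.3%, and *Nr4a3* in 30.2% against 20.9%. Only *Nr4a2* of these 3 was listed for subcluster 3 alone, *Nr4a1* was in larger shares of subclusters 1 (79.5%), 7 (89.0%) and 8 (82.0%), and *Nr4a3* in a larger share of subcluster 8 (40.4%). *Egr1* (34.3% against 22.6%) and *Crem*, a factor that responds to cAMP (26.2% against 17.1%), also had larger shares in subcluster 7, at 44.0% and 38.5%. *Ier2* (84.4% against 77.3%), *Klf6* (93.1% against 86.3%) and *Ier5* (51.3% against 50.6%) differed less, and *Ier2* had larger shares in subclusters 1 (91.7%) and 7 (93.0%). *Klf2*, which drives *S1pr1*, was listed for subclusters 1 (87.4%), 5 and 7 (74.0%) and not for subcluster 3, and *Ier3*, *Maff* and *Nfil3* were likewise listed elsewhere.

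Further factors outside the immediate early list completed this group. *Klf9*, which responds to glucocorticoids, was detected in 48.7% against 32.1%, and *Csrnp1*, a nuclear protein, in 54.0% against 37.6%. *Cebpb* was in 62.5% against 48.8%, with 77.5% in subcluster 7, and *Bhlhe40* was in 89.9% against 78.1%, with 93.3% in subcluster 8. Of the AP-1 family, 6 of the 7 genes in the table (85.7%, against 9.01% of all table genes) were listed. *Fosl2* was at 62.7% against 41.3% (65.5% in subcluster 7), *Fosb* as given above and *Fos* at 92.9% against 77.9%. *Junb* (99.2% against 95.7%), *Jund* (97.5% against 96.4%, with 100% in subcluster 8) and *Jun* (64.2% against 62.1%) differed by few points. *Batf* was listed for subclusters 1, 2 and 7.

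Inhibitors of NF-κB and related regulators formed another group. Of the 7 genes of this list in the table, 5 (71.4%, against 9.01% of all table genes) were listed, at a median difference of 9.5 points. The subunits *Rel* and *Relb* were listed for other subclusters. *Nfkbiz*, which encodes the nuclear regulator IκBζ, was detected in 80.0% of cells inside against 57.5% outside and was listed for subcluster 3 alone. *Tnfaip3*, which encodes A20, was in 93.0% against 76.7%, close to its shares in subclusters 8 (93.3%) and 1 (88.8%) and above the 72.7% of the remaining ILC2s. *Nfkbid* (43.9% against 34.4%), *Nfkbia* (95.4% against 90.8%) and *Birc3* (49.5% against 46.2%) differed by fewer points. All of these had larger shares elsewhere, *Nfkbid* in subcluster 1 (49.7%), *Nfkbia* in subclusters 1 (97.3%) and 8 (98.9%) and *Birc3* in subcluster 8 (60.7%). *Malt1*, a protease of the signalling complex upstream of NF-κB, was outside that list and was in 65.5% against 52.8%.

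Genes that end other signals were listed alongside. Of 9 MAP kinase feedback genes in the table, subcluster 3 listed 3 (33.3%, against 9.01% of all table genes). They were the phosphatase gene *Dusp1* (84.3% against 74.4%) and the Sprouty genes *Spry2* (29.6% against 13.7%) and *Spry1* (27.6% against 15.2%). Both Sprouty genes were listed for subcluster 3 alone. Of 9 genes for messenger RNA decay and the BTG family in the table, 8 (88.9%, against 9.01% of all table genes) were listed. *Zfp36l1* was detected in 98.0% against 81.2% and *Zfp36* in 78.9% against 67.2%. The others were nearer to even, with *Tob2* at 47.6% against 40.5%, *Pnrc1* at 91.3% against 86.0%, *Btg2* at 91.0% against 85.8%, *Zc3h12a* at 30.4% against 26.6%, *Btg1* at 99.4% against 97.8% and *Zfp36l2* at 99.6% against 98.9%. Some of these feedback genes had larger shares elsewhere. *Zfp36* was in 87.5% of subcluster 1 and 85.4% of subcluster 8, *Btg2* was in 96.0%, 98.0% and 95.5% of subclusters 1, 7 and 8, and *Dusp1* was in 85.2% of subcluster 1. *Rc3h1* was listed for subcluster 5. *Ppp1r15a*, a phosphatase subunit that restores translation after stress, was in 82.5% against 65.8% and was listed for subcluster 3 alone.

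Some of these genes carry the letters of known factor binding motifs just upstream of their start, and a few are shown because NF-κB inhibitors and AP-1 subunits were themselves among the listed genes. RefSeq promoters of 300 bases (250 before the start and 50 after it, build GRCm38.p6) were matched for 191 of the 237 genes, 246 promoters in all. Promoters of the same gene can overlap and share a site. The counting intervals treat promoters as independent and may thus be too narrow. An NF-κB motif on either strand was present in 20 of 246 promoters (8.13%, exact Clopper-Pearson 95% interval 5.04 to 12.3, which covers counting error only), against 5.43% of the promoters of the table's other genes and 4.51% of all promoters. In the 75 promoters of the members that differed by at least 10 points it was present in 12 (16.0%, interval 8.55 to 26.3). The following windows upstream of the start hold it, in capitals, each printed along its gene's strand:
Cxcl2: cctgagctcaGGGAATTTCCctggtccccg
Nfkbia: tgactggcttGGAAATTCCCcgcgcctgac
Nfkbid: gccccgccctGGGACTTCCCagagcaccac
Tnfaip3: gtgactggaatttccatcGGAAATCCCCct

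The windows lie at chr5:90903792-90903821 on the plus strand for *Cxcl2*, chr12:55492657-55492686 on the minus strand for *Nfkbia*, chr7:30422170-30422199 on the plus strand for *Nfkbid* and chr10:19015411-19015440 on the minus strand for *Tnfaip3*. The first base of the motif lies 97, 29, 226 and 12 bases before the start in that order. *Cxcl2* is one of the 5 marker genes and the other 3 encode NF-κB inhibitors. *Nfkbia* and *Nfkbid* differed by only 4.6 and 9.5 points, so they are not among the members that differed by at least 10 points. Other genes of that set with the motif upstream, among them *Fos*, *Fosb*, *Fosl2* and *Il2ra*, are not printed. *Tmem176a* and *Tmem176b* share 1 match, since their promoters overlap.

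The AP-1 motif TGACTCA on either strand was in 13 of 246 promoters (5.28%), close to the 5.20% of all promoters, and in 3.58% of those of the table's other genes. In the members that differed by at least 10 points it was in 6 of 75 promoters, and 4 of these genes are shown:
Mctp1: cctttgagagtTGAGTCAtatcctgtggat
Prnp: gtccggagcggTGACTCAttcccccacccc
Tnfaip3: aaatgcccaggTGACTCAcgcggggacacc
Csrnp1: gcgaggcttggTGAGTCAcggaccccggga

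In capitals is the motif as it reads on the gene's strand. The windows lie at chr13:76579520-76579549 (plus) for *Mctp1*, chr2:131909815-131909844 (plus) for *Prnp*, chr10:19015528-19015557 (minus) for *Tnfaip3* and chr9:119983107-119983136 (minus) for *Csrnp1*. Distances are from the RefSeq start, and GENCODE gene bounds can reach farther: the windows printed for *Mctp1*, *Csrnp1*, *Nfkbid*, *Tnfaip3* and *Dusp1* lie inside those bounds.

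The cAMP response element TGACGTCA, a palindrome that does not contain the AP-1 motif, was present in 8 promoters (3.25%) against 2.90% of the table's other genes and 1.79% of all promoters. It was in 2 of the 75 promoters (2.67%) of members that differed by at least 10 points, in 0 of 117 of genes shared with subcluster 0 (exact Clopper-Pearson upper limit 3.104%), and in no promoter matched for the neuropeptide and cAMP genes listed for subcluster 3. It is shown for the marker gene *Areg* and for *Ppp1r15a* and *Dusp1*, which were described above:
Areg: gggctggtccgTGACGTCAcgggcggtggc
Ppp1r15a: gagaccccgcctctccggTGACGTCAgcac
Dusp1: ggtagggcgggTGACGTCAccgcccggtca

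These windows lie at chr5:91139527-91139556 (plus) for *Areg*, chr7:45526269-45526298 (minus) for *Ppp1r15a* and chr17:26508597-26508626 (minus) for *Dusp1*. The GATA motif AGATAA was in 7.72% of the members' promoters against 6.52% of those of the table's other genes and 11.2% of all promoters. Among members that differed by at least 10 points it was in 12.0% (9 of 75, interval 5.64 to 21.6). That interval covers both the 6.52% and the 11.2%. The CArG box, the motif of serum response factor, was in 2.44% against 1.33% and 1.63%. A match is a description of letters in a window and was not tested as a binding site, and a promoter without a match says nothing on the factor.

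The list of subcluster 3 overlapped most with that of subcluster 0. Of its 237 genes, 99 (41.8%) were also listed for subcluster 0, which listed 11.4% of the table's genes, and these 99 were 33% of the list of subcluster 0. The share of cells was higher in subcluster 3 for 61 of them, higher in subcluster 0 for 36 and equal for 2, and both shares lay within 5 points of each other for 79. Only *Calca*, *Hs3st1* and *Ccr8* were higher in subcluster 3 by at least 10 points. In the other direction *Lpcat2*, an enzyme of platelet-activating factor synthesis (42.1% in subcluster 3 against 56.3% in subcluster 0), *Sdc4* (39.9% against 52.6%), the calmodulin-binding protein gene *Nrgn* (40.7% against 52.4%) and *Txnip*, a thioredoxin inhibitor (77.5% against 88.6%), were higher in subcluster 0 by at least 10 points.

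Several of the shared genes had low shares in the other ILC2s and much higher ones in both subclusters. *Mctp1*, a membrane protein with calcium-binding C2 domains, was detected in 60.3% of subcluster 3 and 59.2% of subcluster 0, against 14.8% of the remaining ILC2s. *Stab2*, a scavenger receptor best known from liver sinusoidal endothelium, was in 59.5% and 68.4% of these and in 70.4% of subcluster 9, against 11.3% of the remaining ILC2s. *Prnp*, the prion protein gene, was in 55.0%, 59.1% and 74.1% of the same subclusters, against 12.2%. For each of these genes the subclusters that list it and the rest of the ILC2s were far apart. In the authors' cell type table *Stab2* was listed for both ILC2 types and gdT_TypeII, and not for endothelium. Of the endothelial marker genes checked here, *Pecam1* was listed for subclusters 1, 5 and 8 and not for 3, and *Cdh5* and *Kdr* were not in the table. *Slc7a8*, an amino acid transporter that pairs with the heavy chain encoded by *Slc3a2*, was in 79.6% of subcluster 3, 83.3% of subcluster 0 and 76.5% of subcluster 9, against 41.8% of the remaining ILC2s, while *Slc3a2* itself was at 79.4% inside against 76.1% outside and 80.4% in subcluster 0. The neighbouring genes *Tmem176b* (74.9% against 84.3%) and *Tmem176a* (69.1% against 78.0%) were higher in subcluster 0 than in subcluster 3, and the ubiquitin ligase gene *Rnf128* (74.7% against 74.5%) was level. Another pair, *Lztfl1* (47.4% of the ILC2s outside its listing subclusters, 20.7 points higher in subcluster 3 than in all other ILC2s) and *Mdfic* (58.3% inside, 40.8% outside and 63.9% in subcluster 0), had the same listing set as *Fosb*, which was subclusters 0, 3 and 5. *Stxbp6* had a share of 31.0% inside against 16.7% outside, a ratio of 1.86. The listing set of *Calca*, subclusters 0 and 3, was held by 43 other genes, and that of *Hs3st1*, subclusters 0, 3 and 7, by *Nrgn*, *Rbpms*, *Slc6a13* and *Ubash3b*.

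**Figure D3:**
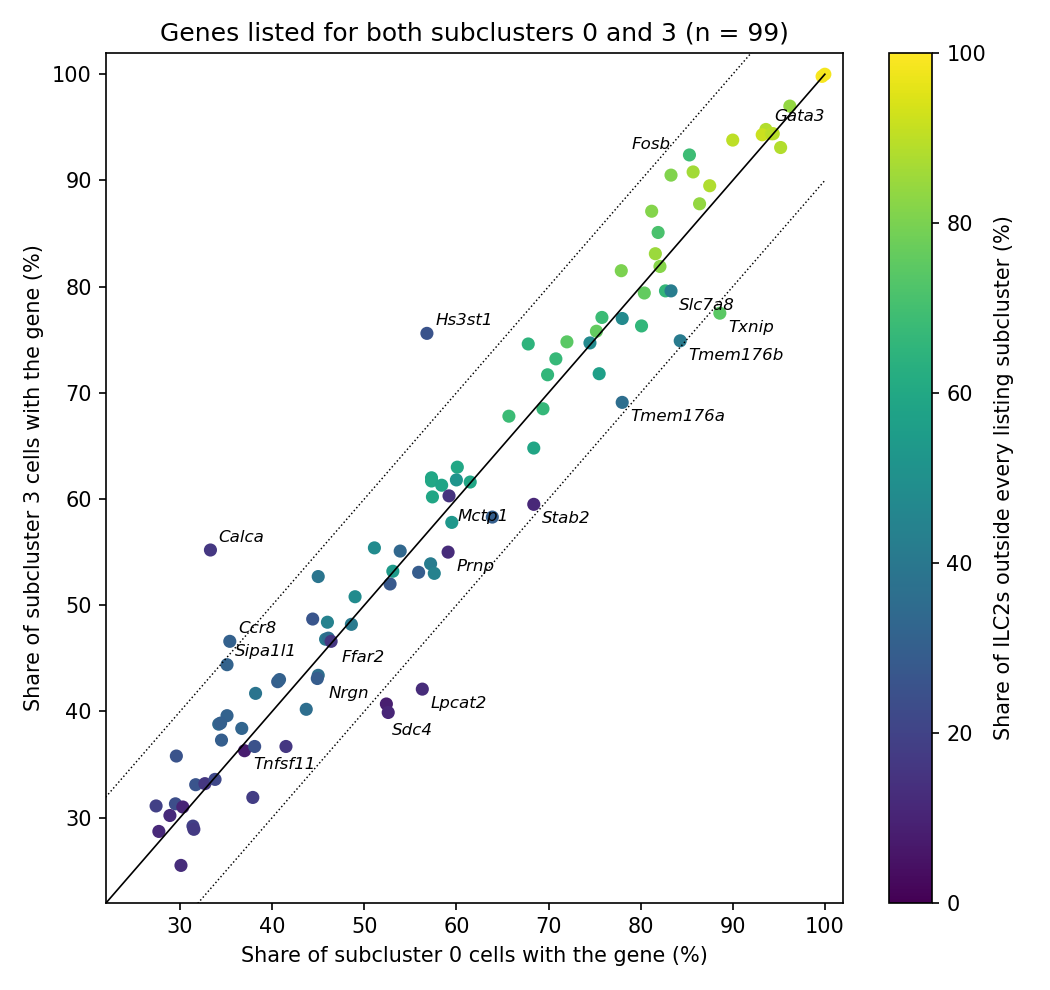
Share of subcluster 3 cells (vertical axis, %) against the share of subcluster 0 cells (horizontal axis, %) with each of the 99 genes listed for both. Colour gives the share in ILC2s outside every listing subcluster, the solid line marks equal shares and the dotted lines a difference of 10 points. *Calca*, *Hs3st1* and *Ccr8* lie above the upper dotted line, while *Lpcat2*, *Sdc4*, *Nrgn* and *Txnip* lie below the lower one.

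The genes listed for subcluster 3 alone numbered 47, or 19.8% of its list. Over all subclusters, 70.8% of the table's genes, which make up 49.7% of its listings, were listed for 1 subcluster only. When listings with a share inside not above that outside were left out of every subcluster, 83 of 222 genes were listed for subcluster 3 alone. The share listed alone ranged over the other subclusters from 1.53% in subcluster 2 and 14.2% in subcluster 6 to 75.9% in subcluster 4, with 28.7% in subcluster 0. These 47 genes had a median difference of 7.2 points, and 19 of them reached 10 points. Led by *Klf4*, *Nfkbiz* and *Bmp2*, they included *Irs2*, an adaptor of the insulin receptor (57.8% against 37.9%), *Frmd4b* (66.5% against 47.5%), *Zfp36l1*, *Ppp1r15a*, *Cxcl2*, *Csrnp1* and *Spry2* among the 10 with the largest difference. *Kctd12* (29.3% against 13.9%) had a ratio of 2.11. Feedback regulators, secreted factors and transcription factors of the groups above were thus found here, while *Calca* and *Hs3st1* were among the genes shared with subcluster 0.

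Overlaps with the small subclusters 7 and 9 ran the other way. Of the 237 genes, 33 (13.9%) were also listed for subcluster 7, which listed 10.3% of the table's genes, and 32 of these had the larger share in subcluster 7. Over the 33, the share in subcluster 3 minus that in subcluster 7 had a median of -12.3 points. With subcluster 9, which listed 7.57%, 29 genes (12.2%) were shared and 27 were higher there. Of those shared with subcluster 8 (9.62% of the table) 22 of 23 were higher in subcluster 8, and of those shared with subcluster 1 (13.8% of the table) 13 of 15 were higher in subcluster 1. Among genes shared with subcluster 7, the exception was *Hs3st1*. Subclusters 7, 8 and 9 held 1.42%, 0.668% and 0.611% of the ILC2s, so their shares rest on few cells. Of the 150 genes also listed for a subcluster other than 5, 48 had their largest share in subcluster 3.

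A group of 85 genes (35.9%) was listed for both subclusters 3 and 5, and subcluster 5 listed 38% of the table's genes. The share of cells was higher in subcluster 3 for all 85. In subcluster 5, which held 3.87% of the ILC2s, the share lay below that of the other ILC2s for 83 of the 85, although listed genes are those called higher. This was so for 978 of the 1000 genes of subcluster 5 (97.8%) and thus not particular to the genes shared with subcluster 3. *Sik1* was detected in 13.2% of subcluster 5, *Fosl2* in 17.3% and *Lztfl1* in 27.2%. For the 40 genes listed for these subclusters and no other, the median difference in subcluster 3 was 3.4 points and 3 reached 10 points, namely *Cxcr4*, *Nrip1* (91.7% against 80.5%) and *Coq10b* (63.0% against 52.1%). Subcluster 4, which listed 802 genes (30.5% of the table), shared 0 with subcluster 3.

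**Figure D4:**
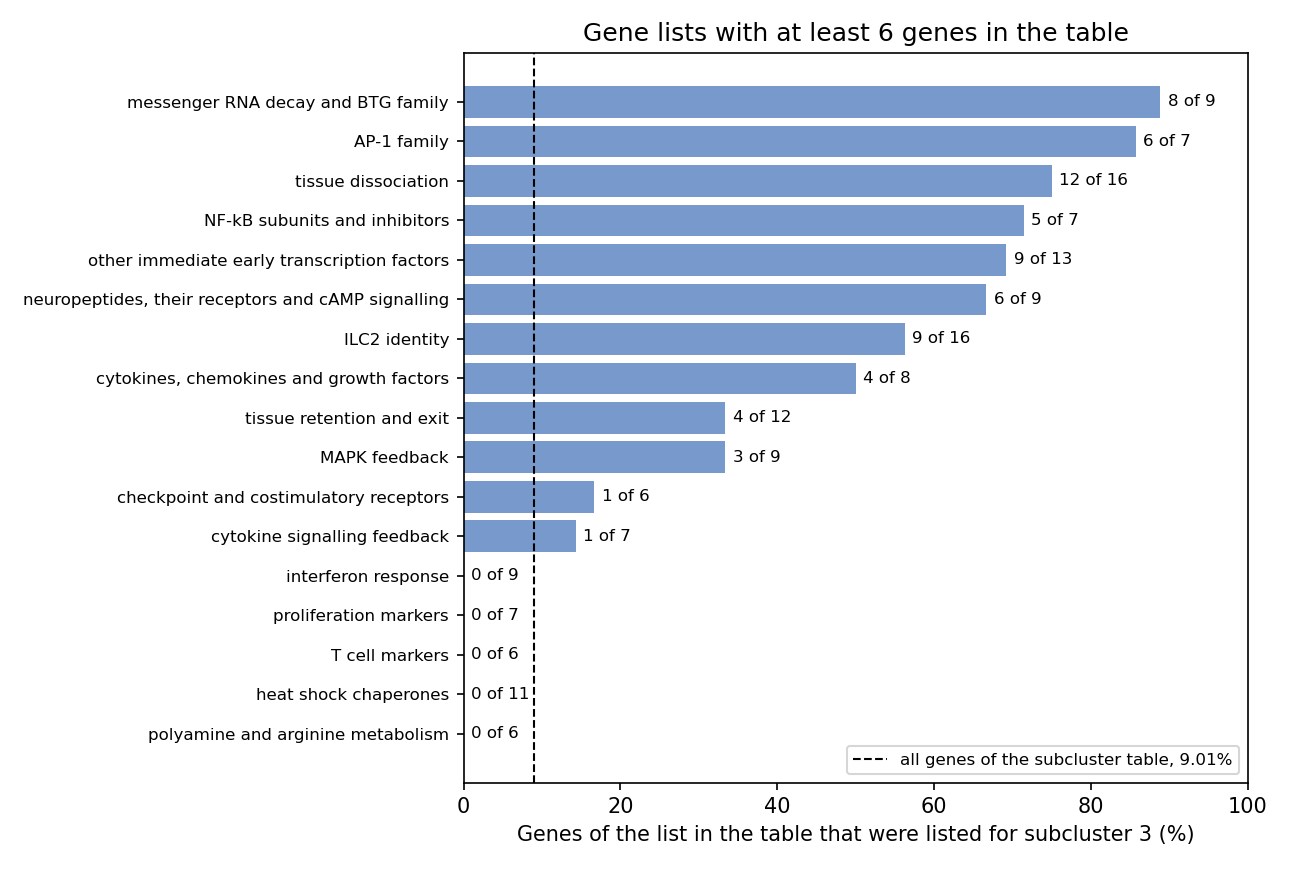
Percentage of each gene list's members in the subcluster table that were listed for subcluster 3, for lists with at least 6 members in the table, with the counts beside the bars. The dashed line is the 9.01% of all genes in the table. Lists for messenger RNA decay, AP-1, tissue dissociation and NF-κB lie highest, and heat shock, interferon, T cell, proliferation and polyamine lists have 0 genes.

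Over all 22 lists, 58 genes were listed for subcluster 3 (the plot of gene lists). A set of genes that is known to respond to enzymatic tissue dissociation overlapped with the immediate early genes. Of its 16 members in the table, subcluster 3 listed 12 (75%, against 9.01% of all table genes), at a median difference of 8.5 points. They were *Fos*, *Fosb*, *Jun*, *Junb*, *Egr1*, *Ier2*, *Dusp1*, *Zfp36*, *Btg2*, *Nr4a1*, *Klf6* and *Nfkbia*. The members that were not listed were *Ier3*, *Socs3* and the heat shock genes *Hspa1a* and *Hspa1b*, and none of the 11 heat shock chaperone genes in the table was listed. *Hspa1a* was in 28.7% and *Hspa1b* in 33.1% of subcluster 2 cells. The part of dissociation in the list of subcluster 3 was not tested. No interferon response gene (9 in the table), proliferation marker (7) or polyamine and arginine gene (6) was listed, and *Pim1* (88.6% against 84.3%, with 96.9% in subcluster 1 and 97.8% in subcluster 8) and *Tnfrsf18* (75.8% against 75.7%) were the single listed genes of the cytokine feedback and checkpoint lists.

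In the authors' table of 21 cell types, in which each type was compared with all other cells, 122 of the 237 genes were found among the 820 genes held by both tables, where subcluster 3 listed 14.9%. Of these 122, 72 (59.0%) were listed for the cell type named ILC2, which listed 14.1% of the 820. These 72 were 62.1% of that cell type's 116 genes in both tables. The genes shared with subcluster 0 were the ones most often listed for it, at 41 of 46, against 12 of 21 genes listed for subcluster 3 alone, 2 of 11 genes shared with subcluster 5 only and 17 of 44 others. The second ILC2 type listed 46 of the 122 genes and 16.8% of the 820, the type named ILC1_ILC3 listed 45 and 17.7%, gdT_TypeIII_ITGAE listed 38 and 15.7%, and basophils 37 and 16.1%. The endothelium type listed 21 of the 122 and 13.2% of the 820. The type named gdT_TypeII listed 26 of the 122 and 3.29% of the 820, and these were 96.3% of its 27 genes in both tables, so genes of subcluster 3 were not all particular to ILC2s.

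At the lower end, 14 of the 237 genes were detected in a smaller share of cells inside than outside, although they were listed as higher, and *Isy1* was at 45.7% on both sides. The 5 smallest differences belonged to *Ero1l*, an oxidase of the endoplasmic reticulum (60.5% against 66.5%), *Cited2* (67.8% against 70.8%), *Fgl2* (88.2% against 90.5%), *Saraf* (75.8% against 78.1%) and the glucocorticoid-induced gene *Tsc22d3* (76.1% against 78.2%). The lowest share inside was 25.5%, for *Ldhd*, and no listed gene was below 25% both inside and outside. At the upper end 29 genes were in at least 90% of subcluster 3 cells, and for those a share of cells has little room to differ.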

How the data were processed

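The study profiled sorted ILC2s of 4 libraries by droplet-based scRNA-seq. Per the labels and the study's methods, the authors aligned reads with Cell Ranger to build mm10, removed doublets and dead cells by flow cytometry, kept immune cells with at least 500 genes and clustered them in Seurat (versions 3.1.2 and 4.0.4 appear in the submitters' processing notes). Cells that expressed non-ILC2 markers were left out before the ILC2s were subclustered. No computational doublet caller was described. The authors deposited a cell type table and an ILC2 subcluster table, with 3745 listings in the latter. The values used were the deposited shares of cells with a gene inside and outside a cluster, fractions with 3 decimals, shown as percentages with a rounding limit of 0.05 points. The deposited log2 fold changes and p-values hold the authors' own comparisons and were not used. Of the cell type table, whose Seurat assay was not given in the sources used here, only the listings were used. The tables held 0 further columns of values per sample, and no replicate exists, so no test was run.

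Subcluster sizes were solved by least squares from the 768 genes that at least 2 subclusters listed, since every listing of a gene implies the same share in all ILC2s. The solved sizes sum to 100.2%. On simulated data over 768 genes, in which rounding was the only error, the largest size error was 0.0224 points. Over the fits of the deposited shares, the size of subcluster 3 ranged from 14.89% to 14.93%. Sizes and shares then gave the share in ILC2s outside every listing subcluster, with rounding limits of 0.05 to 0.126 points. These limits take the solved sizes as exact. Members and gene lists were chosen with earlier results of these data known, and the grouping by role was made after the list was seen. Genes named were the 5 given markers, the 25 largest differences, the 15 largest ratios, the 10 largest differences among genes listed for subcluster 3 alone, listed members of the gene lists, the 5 smallest differences and genes shared with like subclusters. Other genes named, such as *Cebpb*, *Bhlhe40*, *Malt1*, *Cysltr1*, *Alox5*, *Nrip1*, *Coq10b* and *Isy1*, were chosen after their values were seen. Positions came from GENCODE (GRCm38) and promoter sequences from RefSeq (GRCm38.p6). Motifs were searched on both strands over 300 bases, and windows of 30 bases were printed. Python 3.11.15, numpy 2.4.6, pandas 2.3.3, scipy 1.17.1 and matplotlib 3.10.9 were used. Alternatives were a minimum difference or ratio of shares, another size fit and the members that differed by at least 10 points for motifs.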

Additional observations from a re-analysis of the deposited data

How the results depend on the processing

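Every value rests on pooled tables without replicates, and only rounding limits and counting intervals over promoters were computed. Keeping only genes with a share inside above that outside left 222 of the 237 genes, 86 shared with subcluster 0, 28 with subcluster 9, 32 with subcluster 7, 58 in the gene lists and 68 listed for the ILC2 cell type, but subcluster 5 then shared 2 genes and 83 genes were listed for subcluster 3 alone. With a difference of at least 10 points in each listing, 67 genes were left, of which 28 were listed alone, 25 shared with subcluster 0, 8 with subcluster 9, 13 with subcluster 7, 0 with subcluster 5, 27 in the gene lists and 34 for the ILC2 cell type. With a share at least 1.5 times that outside, 33 genes were left, of which 14 were listed alone, 14 shared with subcluster 0, 4 with subcluster 9, 6 with subcluster 7, 0 with subcluster 5, 15 in the gene lists and 13 for the ILC2 cell type. The overlap with subcluster 5 therefore depended on listings with a share below that of other cells. Over members that differed by at least 10 points, the NF-κB motif was in 16.0%, the GATA motif in 12.0% and the AP-1 motif in 6 of 75 promoters, the last within the counting interval of the value over all members. The size of subcluster 3 was 14.9% under every fit, and no remaining share moved beyond its rounding limit (largest shift 0.0392 points). In all, 20 alternative values moved and 15 did not. No paired analysis was possible because no value in the tables belongs to a single library.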
